A study of Mus musculus with 9 samples.

Results

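Cadherins are adhesion proteins of the cell surface, and the 2 branches of the family examined here were the cadherins in the narrow sense (Cdh genes) and the protocadherins (Pcdh genes). Members were chosen by name, with no filter on measured values. They are the probe sets whose single gene symbol is Cdh followed by a number or starts with Pcdh. Earlier results of these data were known when the family was chosen, and the study had named Cdh11 among its upregulated genes. A probe set is the group of short oligonucleotide probes that reads 1 transcript on the array. In all, 101 of the 45101 probe sets of the array met this rule, and they stand for 56 of the 18193 genes with a single symbol.

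RNA was taken from adult olfactory bulb stem cells (aOBSCs), neural stem cells of the mouse olfactory bulb that grow as floating balls of cells (neurospheres). All cultures were kept for 7 days in serum-free medium and received FGF-2 and EGF, the 2 growth factors that keep such cells dividing, each to 20 ng/ml. They differed in how often this was done, which was daily in Ctr, at intervals of 2 days in C2 and at intervals of 4 days in C4. By the study's account, cells had passed through 2 further passages in their regimen before the assays. At collection, aOBSCs had gone without added factors for 1 day in C2 and for 3 days in C4. The time since the last addition thus differed with the interval. Each condition had 3 arrays, described by the labels as biological replicates. The study prepared aOBSCs from CD1 or C57Bl/6 mice, and for the arrays from animals of 7 and 15 months, but the sources used here do not tie an array to an animal, an age or a strain, so a p-value reflects the spread among these arrays and no more. Values are the log2 expression levels that the authors made with GCRMA, so that a difference of 1 is a doubling. GCRMA sets transcripts without signal to a common lowest value, which was 2.27, and a probe set with a mean under 4 in all conditions is called at the floor below.

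Classical cadherins bind the same or a related cadherin on a neighbouring cell through calcium-dependent contacts, and hold to the actin skeleton through catenins. Type I members such as N-cadherin (Cdh2) form the adherens junctions by which neural stem cells attach to each other, whereas type II members sort neurons and glia into groups. Protocadherins lack the catenin-binding tail. The clustered ones are expressed from tandem gene arrays in combinations that differ between cells and serve in self-recognition, and the delta ones are single genes with roles in cell sorting, migration and the growth of axons and dendrites.

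The label of neural stem cells was checked first against a list of 12 markers. Of the 11 measured, 10 were above the floor, and Fabp7, Vim, Sox2 and Olig2 had mean levels over all arrays of 14.63, 14.67, 13.00 and 12.13. The stem cell marker Prom1 stood at the lowest value. Markers of some other cells that could have come with the bulb were mostly absent. None of the 6 measured genes of olfactory ensheathing cells and none of the 8 endothelial genes was above the floor. Of pericytes and fibroblasts, of microglia and macrophages and of ependymal cells 1 gene each was (Acta2, Cd68 and Foxj1). Of astrocytes 8 of 9 measured genes were above it, of the oligodendrocyte lineage 5 of 9 and of neuroblasts and neurons 3 of 9. The third quartile of the values ranged from 6.46 to 6.51 in Ctr, from 6.50 to 6.52 in C2 and from 6.47 to 6.60 in C4, where replicates 2 and 3, at 6.58 and 6.60, were above all other arrays. Setting the third quartiles equal gave 18 member probe sets called in C4 against Ctr in place of 15, and its effect on the other comparisons is given beside their counts. With the quartiles equal, the share of all probe sets called was not counted.

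Of the 6 genes that rose in C4 against Ctr, Cdh11 and Pcdh11x had no promoter sequence in the source used. The sequences before listed starts of the other 4 genes are shown. They are Cdh10 (type II cadherin, chr15:18820079-18820328, plus strand), Pcdh10 (chr3:45378148-45378397, plus strand), Pcdh9 (chr14:93890670-93890919, minus strand, the first of 2 listed windows) and Pcdh19 (chrX:133688994-133689243, minus strand). Each run is the 250 bases before a start listed for the gene in RefSeq on GRCm38.p6, and capitals mark a GC box on either strand. For Cdh10, Pcdh9 and Pcdh19 that start lies inside the gene's RefSeq bounds, so the run is not the sequence upstream of the whole gene.
Cdh10: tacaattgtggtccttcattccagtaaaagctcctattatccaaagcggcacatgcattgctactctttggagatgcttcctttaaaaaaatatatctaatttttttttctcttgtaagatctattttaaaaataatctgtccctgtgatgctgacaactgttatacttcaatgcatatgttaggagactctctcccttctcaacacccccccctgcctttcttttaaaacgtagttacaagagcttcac
Pcdh9: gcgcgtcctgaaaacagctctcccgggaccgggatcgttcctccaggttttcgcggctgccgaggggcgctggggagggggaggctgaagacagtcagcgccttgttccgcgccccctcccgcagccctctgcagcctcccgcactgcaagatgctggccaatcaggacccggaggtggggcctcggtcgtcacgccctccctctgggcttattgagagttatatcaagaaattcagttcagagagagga
Pcdh10: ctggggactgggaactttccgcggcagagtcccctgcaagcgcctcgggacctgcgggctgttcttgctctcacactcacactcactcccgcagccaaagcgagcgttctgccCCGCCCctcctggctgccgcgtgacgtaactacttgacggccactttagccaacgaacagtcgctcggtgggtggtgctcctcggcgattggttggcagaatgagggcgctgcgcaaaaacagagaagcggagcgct
Pcdh19: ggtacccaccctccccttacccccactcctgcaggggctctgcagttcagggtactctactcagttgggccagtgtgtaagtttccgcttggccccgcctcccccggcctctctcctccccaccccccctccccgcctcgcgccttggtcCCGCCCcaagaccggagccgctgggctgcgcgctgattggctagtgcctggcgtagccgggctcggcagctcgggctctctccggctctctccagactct
The windows of the 3 protocadherins were rich in G and C, at 63.6% for Pcdh9, 63.2% for Pcdh10 and 69.2% for Pcdh19, and that of Cdh10 was poor, at 36.8%, where the median window of the genome had 52.4%. A GC box (GGGCGG, both strands, no overlap with the other motifs searched) was present in Pcdh10 and Pcdh19 and not in Pcdh9 or Cdh10. Of the 56 genes, 20 had such a window in the table used, with 23 windows in all. A GC box was found in 8 of these against 32.7% of all 32851 windows, the E-box CAGGTG in 3 against 17.2%, TATAAA in 2 against 12.4%, and the FOXO motif GTAAACA and the AP-1 motif TGANTCA in none, against 3.2% and 6.7%. A match is a description of letters and not a site of binding.

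Of the 56 genes, 32 had at least 1 probe set above the floor and 24 did not. Fewer cadherins than protocadherins were above it, with 9 of 21 genes against 23 of 35. On the scale of probe sets, 50 of the 101 were above the floor, where 41.3% of all probe sets were, and 24 stood at the lowest value on every array, where 24.4% of all did.

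Type I cadherins were represented by Cdh2 and Cdh4. E-cadherin (Cdh1), the junction protein of epithelia, P-cadherin (Cdh3) and the muscle cadherin Cdh15 were at the floor. Of 11 type II genes, 6 were above it, namely Cdh6, Cdh10, Cdh11, Cdh19, Cdh20 and Cdh22, and the endothelial cadherin Cdh5 was at the lowest value on all arrays, as were Cdh8 and Cdh18. Among the 5 atypical genes the membrane-anchored T-cadherin Cdh13, which has no tail inside the cell, was the only gene above the floor. Of 9 delta protocadherins 7 were measured above it, all but Pcdh1 and Pcdh8. Of the clustered genes 15 of 23 were, 14 of them beta genes and the last Pcdhgc4, and of the remaining 3 genes Pcdh15 was, which is best known from the tip links of inner ear hair cells.

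**Figure D1:**
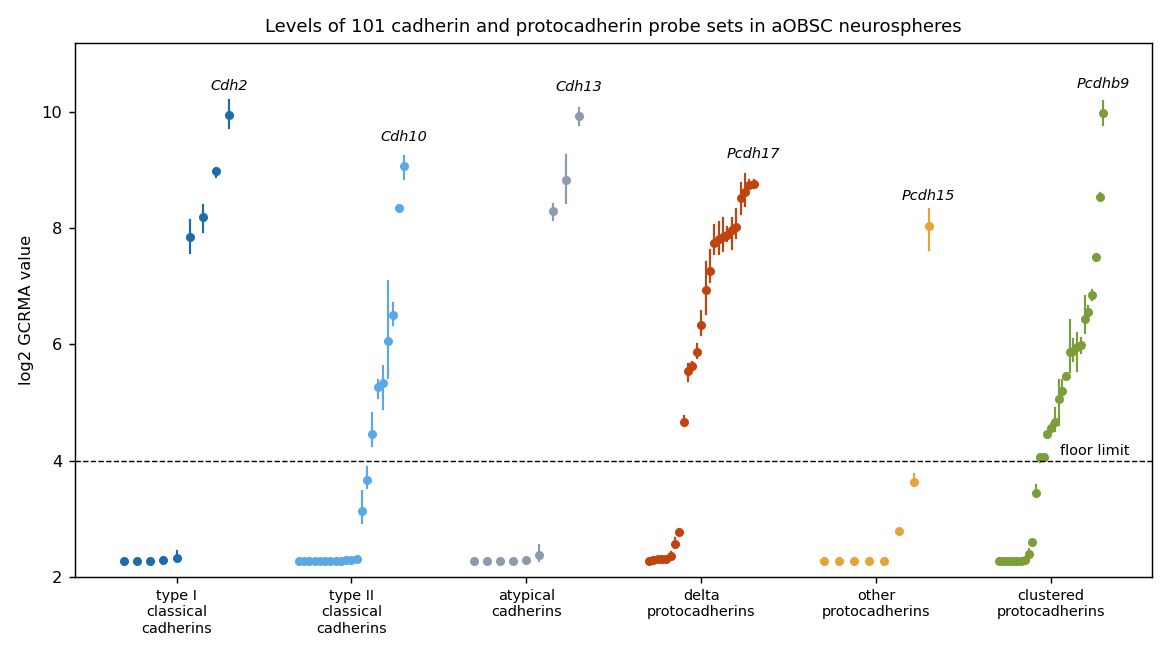
Log2 level (y axis) of each of the 101 probe sets, by class (x axis) and in rising order within a class. Points are means of all 9 arrays, lines run from the lowest to the highest of the 3 condition means, the dashed line is the floor limit of 4, and the named gene has the highest value plotted in its class. Levels of different probe sets are not amounts that can be set against each other, and 17 of 25 delta protocadherin probe sets lie above 4 against 3 of 9 of the atypical cadherins.

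The question put to the family by the design was whether its expression changed when the growth factors were added less often. When C4 was compared with Ctr, 15 of the 101 probe sets passed an adjusted p of 0.05 (limma, adjusted by Benjamini-Hochberg over all probe sets tested), that is 14.9%, where 6.29% of all 45037 probe sets tested did. Of them 11 were higher in C4, where 3.78% of all were, and 4 were lower, where 2.51% were. Without Ctr replicate 1 the number was 9, and the share of all probe sets called in that fit was not counted. The 15 belong to 6 genes that rose (Cdh11, Cdh10, Pcdh19, Pcdh9, Pcdh11x and Pcdh10) and 2 that fell (Cdh13 and Cdh22). A difference of 1 or more was reached by 1 probe set, of Cdh11, where 0.693% of all reached it. The median difference of the 101 was 0, as was that of all probe sets. Since whole neurospheres were measured, fewer cells of a type and less RNA per cell cannot be told apart.

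The classes differed in how many members were called. Type II cadherins had 3 of 21 probe sets higher and 1 lower, atypical cadherins 3 of 9 lower, and delta protocadherins 8 of 25 higher and none lower. None of the 9 type I, 29 clustered and 8 other probe sets was called by limma in C4 against Ctr, with 3, 7 and 2 at an unadjusted p under 0.05, where 15.9% of all probe sets were. By branch, C4 had 3 higher and 1 lower among the 30 probe sets of classical (type I and II) cadherins, and 8 higher and none lower among the 62 of protocadherins. Differences between the classes or the branches were not tested.

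Cdh11, a type II cadherin of mesenchymal cells and of migrating and developing neural cells, had the largest change among the 101 member probe sets. Its probe set 1450757_at read 5.40, 5.28 and 5.57 on the Ctr arrays, 5.55, 5.73 and 5.76 on the C2 arrays and 7.15, 7.13 and 7.0 on the C4 arrays. Every C4 array was thus above every other array, while Ctr and C2 overlapped. The mean rose from 5.42 ± 0.148 to 7.09 ± 0.0819 (SD, n = 3), by 1.68 with a 95% interval from 1.46 to 1.90, or 3.20-fold (limma, adjusted p = 0.0003). Against C2 it was higher by 1.42 (adjusted p = 0.000478). C2 exceeded Ctr by 0.26, which did not pass (limma, adjusted p = 0.356). Both calls of C4 held under each of the 13 other settings run, and the other probe set of Cdh11 was at the floor on all arrays.

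Cdh10, a type II cadherin of the nervous system, was higher in both less frequent regimens on 1460538_at. This probe set read 4.89, 4.87 and 4.90 in Ctr, 5.71, 5.54 and 5.62 in C2 and 5.47, 5.64 and 5.33 in C4. The Ctr arrays lay below all others and C2 and C4 overlapped. The difference was 0.59 ± 0.0812 (SE) in C4 (limma, adjusted p = 0.00848) and 0.74 ± 0.0812 in C2 (adjusted p = 0.0126). On the brighter 1425092_at the C4 arrays, at 9.32, 9.30 and 9.12, also lay above the Ctr arrays, at 8.71, 8.86 and 8.97, with C2 between 9.04 and 9.19. It rose by 0.40 in C4 (limma, adjusted p = 0.0491), a call lost without Ctr replicate 1 or 2 or C4 replicate 1 or 2, with adjusted p from 0.118 to 0.153. The C2 call of 1460538_at was lost without Ctr replicate 2 (adjusted p = 0.0526) or C2 replicate 3 (0.0533). The 2 further probe sets of the gene were at the floor.

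Cdh22, another neural type II cadherin, moved the other way. It read 6.78, 6.70 and 6.68 in Ctr, 6.44, 6.47 and 6.60 in C2 and 6.23, 6.29 and 6.47 in C4, with both regimens below Ctr. In C4 it fell by 0.39 (limma, adjusted p = 0.0265), and the call was lost when any Ctr array or C4 replicate 1 or 2 was left out (0.0664 to 0.0922). The difference of C2, -0.22, did not pass (adjusted p = 0.311). Cdh20, a type II cadherin with 8.30 ± 0.118 in Ctr, 8.38 ± 0.0506 in C2 and 8.38 ± 0.033 in C4, had a difference of 0.08 in C4, with an interval from -0.06 to 0.22.

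Cdh13, which guides growing axons and is also a receptor for adiponectin, was lower in C4 on all 3 of its probe sets above the floor. On 1454015_a_at the arrays read 9.21, 9.24 and 9.36 in Ctr, 8.94, 8.67 and 8.69 in C2 and 8.45, 8.60 and 8.28 in C4, so that C2 lay between the others without overlap. The fall in C4 was by 0.82, with an interval from -1.07 to -0.57 (limma, adjusted p = 0.00639), and the C2 difference of -0.50 did not pass (0.0869). On 1434115_at, with 8.48, 8.39 and 8.39 in Ctr and 8.17, 8.18 and 8.11 in C4, the level fell by 0.27 (adjusted p = 0.0112), a call lost under a robust prior variance (0.111). On 1423551_at it fell by 0.29 (limma, adjusted p = 0.0477), a call lost without Ctr replicate 1 or 3 or any 1 of the C4 arrays (0.0685 to 0.151). The direction was the same on the 3 probe sets and the size differed, since the interval of 1454015_a_at lay below those of the other 2. The suffix of 1454015_a_at marks probes shared by transcripts of a gene.

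N-cadherin (Cdh2), the main type I cadherin of neural stem cells, had no call in any comparison. Its probe set of highest mean, 1418815_at, read 10.28, 10.26 and 10.08 in Ctr, 10.02, 9.65 and 9.54 in C2 and 9.81, 9.86 and 10.04 in C4. The second, 1449244_at, read 7.74, 7.85 and 7.85 in Ctr, 7.62, 7.47 and 7.64 in C2 and 7.94, 8.04 and 8.47 in C4. On the first the C4 arrays were all below Ctr, and on the second all above. The differences of C4 from Ctr were -0.30, with an interval from -0.63 to 0.02, and 0.34, from 0.01 to 0.67 (limma, adjusted p = 0.359 and 0.301). In C2 both probe sets read lower than in Ctr on every array, by -0.48 and -0.24, and neither passed (0.215 and 0.735).

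R-cadherin (Cdh4), the other type I gene above the floor, had 9.03 ± 0.0696 in Ctr, 9.04 ± 0.0692 in C2 and 8.89 ± 0.0317 in C4 on 1456397_at. Its second probe set had 8.40 ± 0.193, 8.23 ± 0.171 and 7.94 ± 0.111. The C4 arrays were below the Ctr arrays on both, with differences of -0.15 and -0.46 that did not pass (limma, adjusted p = 0.166 and 0.106).

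**Figure D2:**
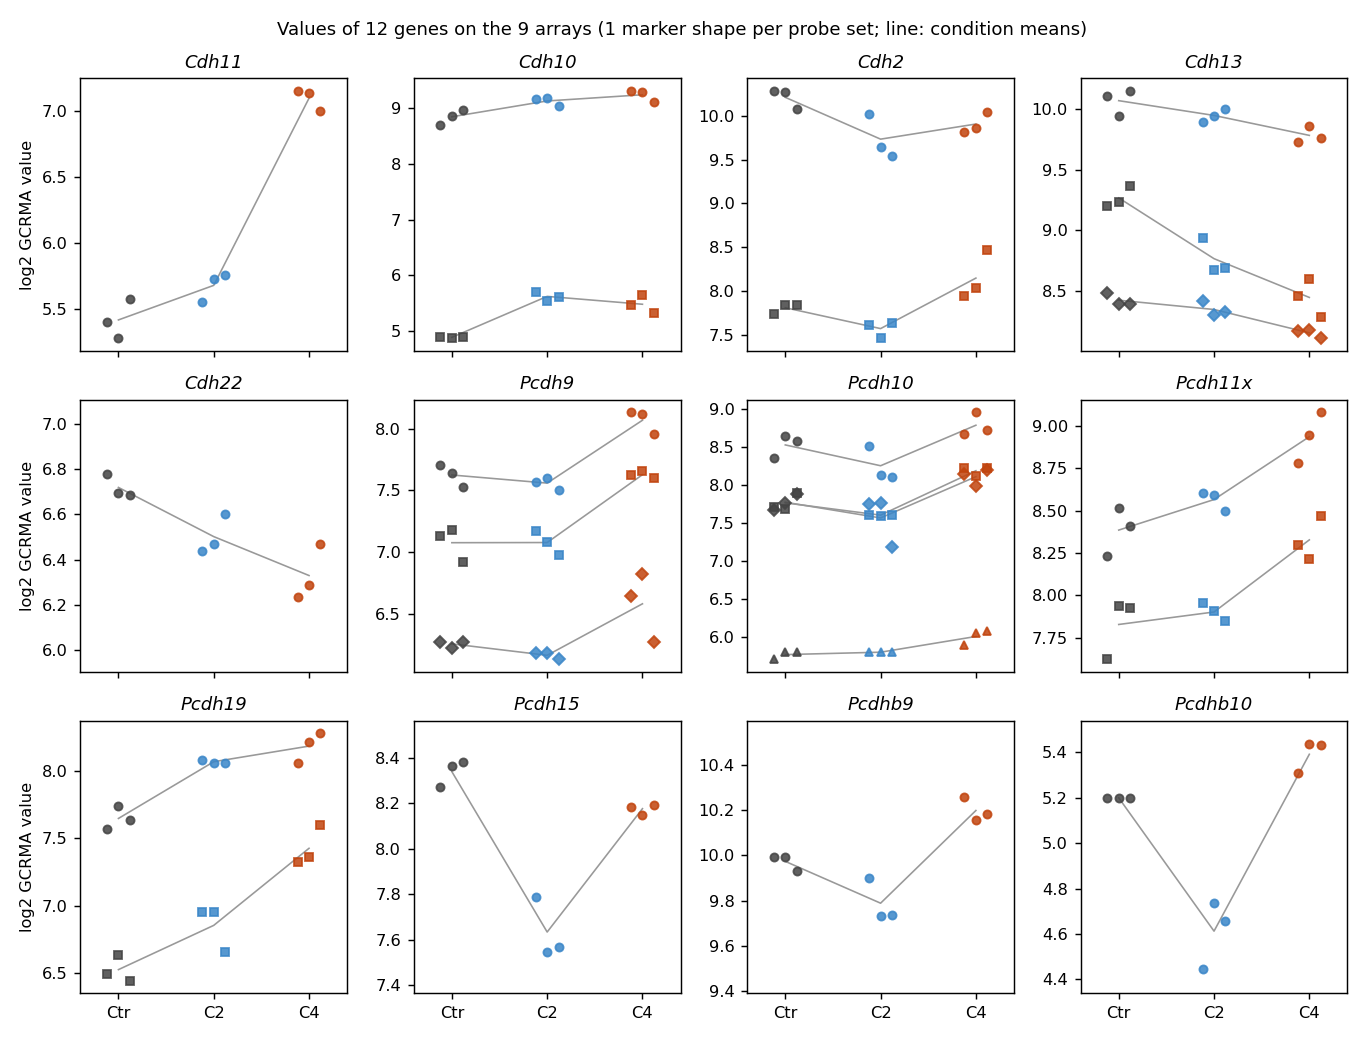
Log2 level (y axis, a scale of its own in each panel) on each of the 9 arrays for Cdh2 and the 11 genes with a call, by condition. Points are arrays, shapes are probe sets above the floor, and lines join the condition means of 3 arrays. Cdh11 stands apart in C4, Cdh10 is lower in Ctr than in both other conditions, the C2 means of Cdh13 lie between those of Ctr and C4, and Pcdh15 and Pcdhb10 are lowest in C2.

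Delta protocadherins held 8 of the 11 probe sets that rose in C4. Pcdh19, a gene of the X chromosome that is mutated in a form of human epilepsy, changed most among them. On 1437360_at it read 6.50, 6.64 and 6.45 in Ctr, 6.95, 6.95 and 6.66 in C2 and 7.32, 7.36 and 7.60 in C4, and the 3 conditions did not overlap. It rose by 0.90 in C4, with an interval from 0.63 to 1.16 (limma, adjusted p = 0.00555). On 1455145_at it read 7.57, 7.74 and 7.63 in Ctr, 8.08, 8.06 and 8.06 in C2 and 8.06, 8.21 and 8.28 in C4, where C2 and C4 overlapped above Ctr. It rose by 0.54 in C4 (adjusted p = 0.00518) and by 0.42 in C2 (adjusted p = 0.0359). Both C4 calls held in every setting with the adjusted p as the only threshold, and neither difference reached 1. The C2 call was lost when any 1 Ctr or C2 array was left out (limma, adjusted p from 0.0587 to 0.114).

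Pcdh9 rose in C4 against both other conditions. On 1429861_at it read 7.13, 7.17 and 6.92 in Ctr, 7.17, 7.08 and 6.98 in C2 and 7.62, 7.66 and 7.60 in C4. On 1442659_at it read 7.70, 7.64 and 7.53 in Ctr, 7.57, 7.60 and 7.50 in C2 and 8.13, 8.11 and 7.95 in C4. Ctr and C2 overlapped on both probe sets and C4 lay above them. C4 exceeded Ctr by 0.55 and 0.44 (limma, adjusted p = 0.00921 and 0.0105) and exceeded C2 by 0.55 and 0.51 (0.0104 and 0.0069). The call of 1442659_at against Ctr was lost under a robust prior or with the C2 arrays left out of the fit, with adjusted p of up to 0.0574. The third probe set, 1458269_at, had a difference of 0.32 in C4 that did not pass (0.281), with 6.27 on both Ctr replicate 1 and C4 replicate 3.

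Pcdh11x, on the X chromosome like Pcdh19, had 2 probe sets, both higher in C4. On 1436449_at the arrays read 8.23, 8.51 and 8.41 in Ctr, 8.60, 8.59 and 8.50 in C2 and 8.78, 8.95 and 9.08 in C4. On 1438889_at they read 7.62, 7.93 and 7.93, then 7.95, 7.91 and 7.85, then 8.30, 8.21 and 8.47. On both the C4 arrays lay above all others. The level rose by 0.55 and 0.50 (limma, adjusted p = 0.0221 and 0.0386). The first call was lost without Ctr replicate 1 or 3 or C4 replicate 2 or 3 (0.0566 to 0.0764), and the second without any 1 Ctr or C4 array (0.0569 to 0.102).

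Pcdh10, which is needed for the growth of axons through the forebrain, had 4 probe sets above the floor and all had higher means in C4 than in Ctr. On 1425563_s_at it read 7.71, 7.69 and 7.90 in Ctr, 7.61, 7.59 and 7.61 in C2 and 8.22, 8.12 and 8.22 in C4. Here C2 was lowest and C4 highest with no overlap between the conditions. It rose by 0.42 in C4 (limma, adjusted p = 0.00978) and exceeded C2 by 0.58 (0.00316), and the call against Ctr was lost under the same 2 settings (up to 0.0631). On the dimmer 1442565_at it rose by 0.24 (limma, adjusted p = 0.0438), a call lost without any 1 Ctr array or C4 replicate 2 or 3 (0.0897 to 0.137), and with the third quartiles of the arrays set equal (0.225). The brightest, 1430667_at, and 1438134_at had differences of 0.26 and 0.33 that did not pass (0.519 and 0.431).

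The remaining delta genes above the floor had no call. Pcdh17 had 8.83 ± 0.0136 in Ctr, 8.69 ± 0.111 in C2 and 8.78 in each C4 array, and 8.03 ± 0.106, 7.79 ± 0.221 and 7.83 ± 0.0803 on its second probe set. Pcdh7 had 8.83 ± 0.0669, 8.68 ± 0.164 and 8.72 ± 0.205. In C4 the intervals of their differences ran from -0.17 to 0.07 for Pcdh17 and from -0.40 to 0.18 for Pcdh7, on their probe sets of highest mean, and both ended below the rises of Pcdh9 and Pcdh19. Pcdh18 was close to the floor, with 4.61 in Ctr, 4.77 in C2 and 4.60 in C4.

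**Figure D3:**
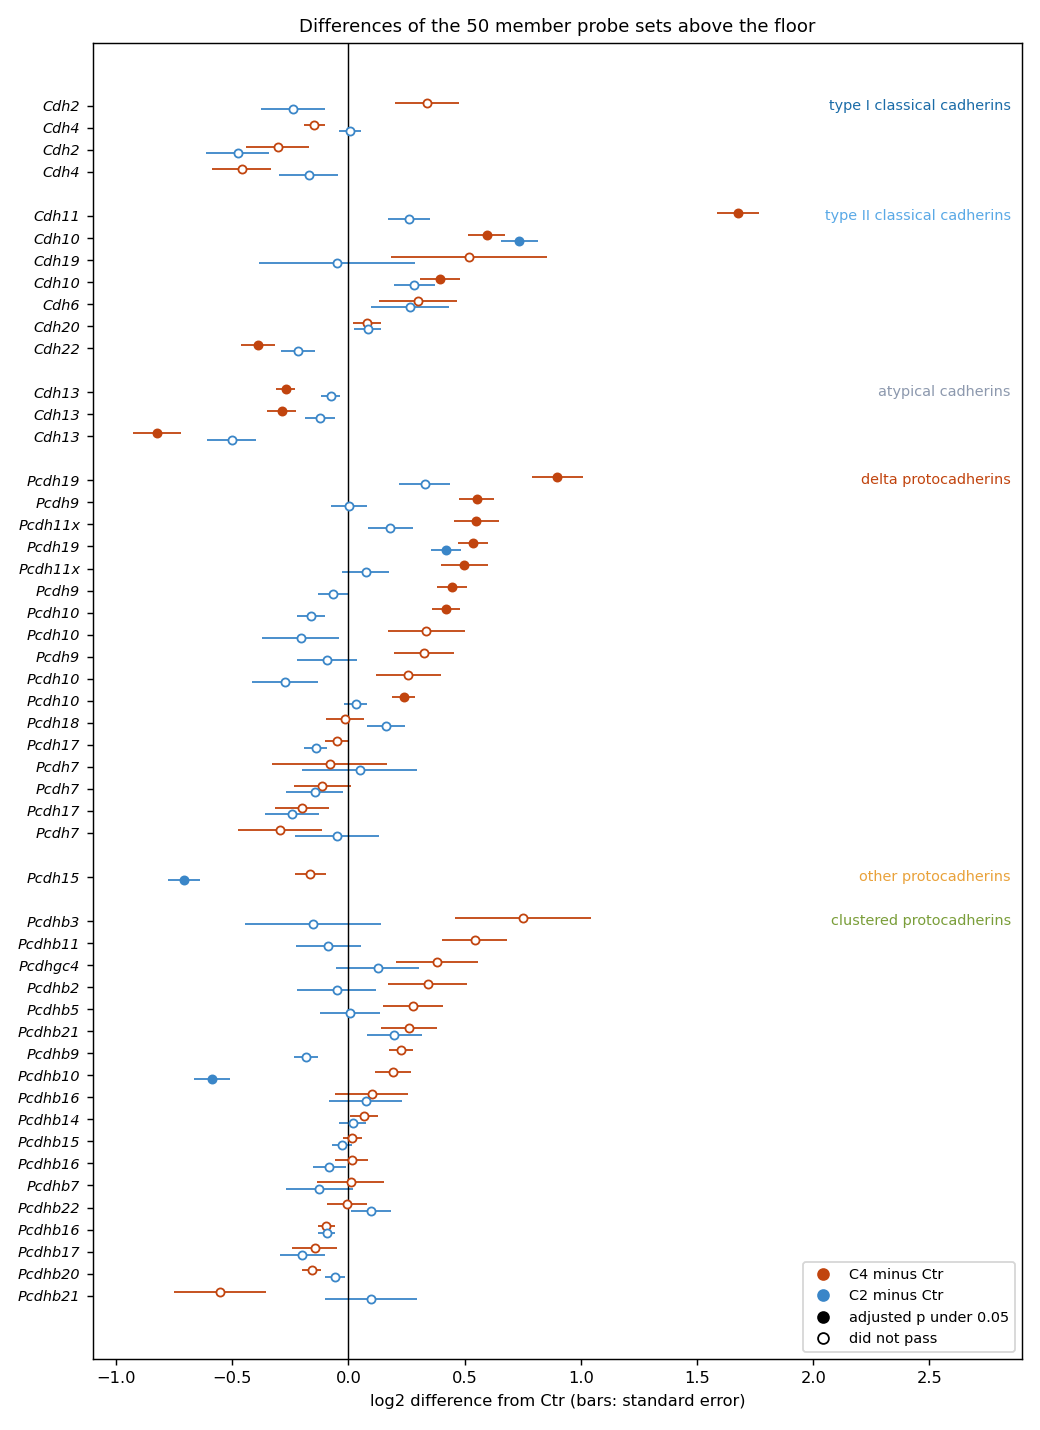
Difference from Ctr on the log2 scale (x axis) for each of the 50 member probe sets above the floor (rows, by class), with red for C4 and blue for C2. Bars are the standard error of limma's fit and filled points passed an adjusted p of 0.05. Cdh11 lies at 1.68 in C4, the filled delta protocadherin points lie right of 0, and those of Cdh13 lie left of it.

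In C2 against Ctr, 4 member probe sets were called, 3.96% of the 101, where 1.70% of all probe sets were. Of them 2 were higher, where 1.13% of all were, namely Cdh10 and Pcdh19 as given above, and 2 were lower, where 0.577% were. Setting the third quartiles of the arrays equal gave 2 higher and 4 lower. The number fell to 2 without Ctr replicate 1 and to 1 without Ctr replicate 2 or C2 replicate 3. It was 0 with the replicate number taken as a block or under a robust prior. The share of all probe sets called was not counted in these settings. In the fit as reported there were 15 at an unadjusted p under 0.05, where 10.3% of all probe sets passed. No member differed by 1 or more, where 0.0844% of all probe sets did. Both comparisons share the Ctr arrays.

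Pcdh15 was lowest in C2. It read 8.27, 8.37 and 8.38 in Ctr, 7.79, 7.55 and 7.56 in C2 and 8.19, 8.15 and 8.19 in C4, with no overlap between the conditions. In C2 it fell by 0.71 (limma, adjusted p = 0.0086), and C4 exceeded C2 by 0.54 (0.00647). The C2 call held without any 1 array. It was lost with the replicate number as a block, under a robust prior or with the C4 arrays left out of the fit (limma, adjusted p of up to 0.07). C4 differed from Ctr by -0.16, which did not pass (0.309). Its 2 further probe sets above the lowest value had means under 4.

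Pcdhb10, a clustered beta gene, was also lowest in C2. It read 5.20 on each Ctr array, 4.44, 4.74 and 4.66 in C2 and 5.31, 5.44 and 5.43 in C4. In C2 it fell by 0.59 (limma, adjusted p = 0.023), a call lost without any 1 Ctr array or C2 replicate 3 (0.0665 to 0.0849). C4 exceeded C2 by 0.78 (limma, adjusted p = 0.00279) and exceeded Ctr on every array by a mean of 0.19 that did not pass (0.298). The 3 equal Ctr values give a spread of 0 in that condition, and the error of the fit comes from the other arrays and from the prior.

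Between C4 and C2, 9 member probe sets were called, 8.91% of the 101, where 5.25% of all were. Of them 8 were higher in C4, where 2.86% of all were, and 1 was lower, where 2.39% were. The number was 18 with the third quartiles of the arrays set equal, of which 16 were higher, and 19 with dim probe sets left out, of which 16 were higher. For these settings the share of all probe sets called was not counted. A difference of 1 or more was again reached by Cdh11 alone, where 0.673% of all probe sets reached it. Beside Cdh11, Pcdhb10, Pcdh15, 2 probe sets of Pcdh9 and 1425563_s_at of Pcdh10, the calls were for Pcdhb9, Pcdh19 and Cdh13. On 1437360_at Pcdh19 was higher in C4 by 0.57 (limma, adjusted p = 0.0351), and on 1434115_at Cdh13 was lower by 0.19, written as a difference of -0.19 (0.0439). Both calls were lost when any 1 array of C2 or C4 was left out, with adjusted p from 0.0597 to 0.0859 and from 0.0727 to 0.128.

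Pcdhb9, another clustered beta gene, was called between C4 and C2 alone. It read 10.00, 9.99 and 9.93 in Ctr, 9.90, 9.73 and 9.74 in C2 and 10.26, 10.16 and 10.18 in C4, with no overlap between the conditions. C4 exceeded C2 by 0.41 (limma, adjusted p = 0.00679). Neither C4 nor C2 passed against Ctr, with differences of 0.22 (0.0576) and -0.18 (0.202).

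The other clustered genes had no call, and their probe sets above the floor ranged in C4 against Ctr from -0.55 for 1438106_at of Pcdhb21 to 0.75 for Pcdhb3. All 22 Pcdhb genes measured lie in 1 array of genes on chromosome 18, and their single coding exons are alike in sequence, so that signal may be shared between them. Pcdhb3 read 5.26, 5.89 and 5.89 in Ctr and 5.94, 6.76 and 6.58 in C4 (limma, adjusted p = 0.276), and Pcdhb11 read 6.23, 6.50 and 6.12 in Ctr and 6.74, 7.03 and 6.71 in C4 (0.0846). In both the C4 arrays were above the Ctr arrays. The probe sets of Pcdhb21 went opposite ways, at 0.26 and -0.55, without a call. Pcdhb16, with 8.51 on all C2 and C4 arrays and 8.65, 8.66 and 8.51 in Ctr, Pcdhb20 (-0.16), Pcdhb17 (-0.15) and Pcdhgc4 (0.38) did not pass either.

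Genes that work with cadherins were counted on 3 lists: catenins and other junction proteins, further members of the cadherin superfamily, and enzymes and transcription factors that cleave cadherins or repress their genes. Of 58 genes, 55 were measured. In C4 against Ctr 1 was higher and 3 were lower, that is 4 of 55 or 7.27%, where 6.29% of all probe sets were called. Beta-catenin (Ctnnb1), which links classical cadherins to the skeleton and carries Wnt signals, had 12.91 in Ctr, 12.88 in C2 and 12.95 in C4, and alpha-catenin (Ctnna1) had 11.4, 11.36 and 11.47, neither with a call (limma, adjusted p = 0.612 and 0.557 in C4). The plakophilin Pkp4, a junction protein of the p120 family, fell by 0.39 (limma, adjusted p = 0.0119), with -0.35 and no call on its other probe set, and the scaffold Cask fell by 0.28 (0.0128). The Cask value rests on 1 probe set: its 3 others differed by -0.01 to 0.24 with no call, and the call was lost without Ctr replicate 2 (0.0542).

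Adam10, the protease that sheds the outer part of N-cadherin and of several protocadherins, fell by 0.46 in C4 against Ctr (limma, adjusted p = 0.00372) and was lower than in C2 by a difference of -0.30 (0.0193), and its 2 other probe sets above the floor differed from Ctr by -0.16 and -0.26 without a call. Zeb1, a repressor of E-cadherin, rose by 0.26 (0.00866) from a mean of 11.90, and of its 2 other probe sets above the floor 1 rose by 0.36 (0.0255) and 1 differed by -0.13 without a call. Its relative Zeb2 was higher in C4 than in C2 by 0.61 (0.0281) on 1 probe set, and its 2 others above the floor differed by 0.02 and 0.12 without a call. The repressors Snai1, Snai2 and Twist1 were at the floor. Of the 23 further superfamily members measured, 7 were above the floor and 1 was called. This was the giant cadherin Fat3, higher in C2 than in Ctr by 0.61 (limma, adjusted p = 0.0353) and lower in C4 than in C2 by a difference of -0.51 (0.0287). Of these calls, that of Adam10 against C2 was lost without any 1 of the 6 arrays (limma, adjusted p from 0.058 to 0.0727), that of Zeb2 without any 1 C2 array or C4 replicate 2 (0.0586 to 0.104), and those of Fat3 without most single arrays (0.0589 to 0.116).

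Markers of glial cells moved with the rises in C4. Beside the counts below, 3.78% of all probe sets were called higher in C4 than in Ctr and 2.51% lower. Of 9 astrocyte genes, 8 were above the floor and 5 were higher in C4 than in Ctr: Aldh1l1 by 1.11, Fgfr3 by 1.10, S100b by 1.05, Aqp4 by 0.72 and Aldoc by 0.23. The mean level of the list ranged from 8.80 to 8.88 over the Ctr arrays, from 8.79 to 8.86 in C2 and from 9.38 to 9.50 in C4. Its defining marker Gfap was at the floor. By protein staining, a measure unlike array RNA, the study reported a larger proportion of GFAP+ cells in C4 than in Ctr neurospheres. Of 9 genes of the oligodendrocyte lineage measured, 5 were above the floor and all 5 were higher in C4, with differences of 2.70 for Gpr17, 1.60 for Omg and 0.94 for Pdgfra, whereas Mbp, Mog, Mag and Sox10 were at the floor. That list ranged from 4.61 to 4.68 in Ctr, from 4.28 to 4.37 in C2 and from 5.26 to 5.41 in C4. Of the stem cell list 5 of 11 were higher, Egfr among them by 0.83, and 1 lower (Vim, -0.40), with ranges of 9.28 to 9.32, 9.26 to 9.32 and 9.50 to 9.59. In C2, the condition with the lowest Pcdh15 and Pcdhb10, Gpr17 was lower than in Ctr by a difference of -1.71 and Aldh1l1 by one of -0.76. For Gpr17 the study reported the opposite direction in C2 by RT-qPCR, and the cause was not tested. The part of these markers in the changes of Cdh11, the delta protocadherins, Pcdh15 and Pcdhb10 was not tested.

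Among markers of pericytes and fibroblasts, Pdgfrb, Col1a2, Col3a1, Dcn and Lum were at or near the lowest value on all arrays, and the list ranged from 2.63 to 2.68 in Ctr, from 2.63 to 2.65 in C2 and from 2.61 to 2.62 in C4. Their part in the change of Cdh11 was not tested. Neuroblast and neuron genes Dcx, Tubb3, Stmn2, Rbfox3, Nefl and Snap25 were at the floor in all conditions. By protein staining for beta-III-tubulin, the product of Tubb3, the study counted rare positive cells in C2 and C4. Of the neuroblast and neuron list Gap43 fell by 0.79 and Cd24a rose by 0.47 in C4 (limma, adjusted p = 0.0002 and 0.0018). The list ranged from 5.11 to 5.12 in Ctr and from 5.08 to 5.11 in C4. Among microglial genes Cd68 alone was above the floor and fell by 2.72.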

How the data were processed

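RNA of aOBSC neurospheres was hybridised to Affymetrix Mouse Genome 430 2.0 arrays, 3 per condition. The deposited values are log2 expression values that the authors made with GCRMA (version not given in the sources used here), which corrects background by probe sequence, normalises quantiles and summarises probe sets. It makes arrays comparable but leaves many dim probe sets with equal values, and precision is limited by having 3 arrays per condition. Of 45101 probe sets, 64 controls were left out. Gene symbols come from the platform annotation (34945 probe sets with 1 symbol, 932 with several, 9160 with none), and all 56 member genes matched RefSeq.

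The test was that of limma (version 3.58.1, R 4.3.3) on all 9 arrays, fitting a mean for each condition, with a prior variance that follows the intensity (6 residual and 0.574 prior degrees of freedom) and Benjamini-Hochberg adjustment over 45037 probe sets. A call is an adjusted p under 0.05. The procedure was tested on simulated data. Where 1 value per gene is given, it is that of the brightest probe set. Named are Cdh11 and Cdh2, every member gene with a call, up to 10 further member genes of highest mean, partner genes with a call (up to 6 per list) and defining markers of other cells. Ctnna1, Ctnnb1, Snai1, Snai2, Twist1, Pcdh18, Pcdhb3 and the genes named as at the floor were added after their values were seen. The members and lists were chosen with earlier results of these data known. Alternatives left out arrays, probe sets or conditions and changed the prior, filter, scaling, threshold or replicate block.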

Additional observations from a re-analysis of the deposited data

Results flagged for a closer look

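Probe sets that list several genes were outside the choice of members and were used in no comparison. Of these, 6 list 9 or 14 genes of the alpha protocadherin cluster each, and their values cannot be given to 1 gene. In C4 against Ctr 3 of the 6 were called higher, where 3.78% of all probe sets were. They were 1420798_s_at by 1.09 (limma, adjusted p = 0.000944), 1424341_s_at by 1.75 (0.0151) and 1451769_s_at by 0.65 (0.0482). Each of these 3 lists 14 genes of the 1 cluster, so they are not readings of separate genes. The first read 6.24, 6.40 and 6.47 in Ctr, 6.48, 6.43 and 6.33 in C2 and 7.39, 7.39 and 7.60 in C4. The second read 3.64, 4.56 and 4.02, then 4.41, 3.95 and 4.56, then 5.57, 5.79 and 6.10. In both the C4 arrays were above all others and Ctr and C2 overlapped. The third was under 4 on all arrays, and the remaining 3 stood near the lowest value. In C2 against Ctr none of the 6 was called by limma, with the 2 brighter ones at 0.05 and 0.23 (adjusted p = 1 and 0.953). Their difference from the single-symbol clustered genes, of which none was called in C4 against Ctr, was not tested.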

How the results depend on the processing

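Of the 28 calls of member probe sets in the 3 comparisons, none changed direction in any setting run. Counts at an adjusted p under other settings stand without the share of all probe sets, which was counted in the fit as reported alone. When 1 array was left out, member probe sets called numbered 9 to 14 in C4 against Ctr (15 with all arrays), 1 to 3 in C2 against Ctr (4) and 7 to 11 in C4 against C2 (9). The lowest, 9, was without Ctr replicate 1. Member genes called by their probe set of highest mean numbered 3 to 6 (7), partner genes 3 to 6 (4) and markers 10 to 13 (13) in C4 against Ctr. With only the arrays of the 2 conditions compared, C4 had 7 probe sets and 2 genes, and C2 had 1. With a robust prior, C4 had 6 probe sets, 2 genes and 2 partner genes, and C2 had 0. Leaving out dim probe sets gave 11 partner genes in C4 and 19 member probe sets in C4 against C2, where the adjustment is over fewer probe sets. Setting the third quartiles of the arrays equal gave 9 and 18, and the cause was not tested. At a difference of at least 1, with or without the adjusted p, C4 against Ctr had 1 probe set, 1 gene, 0 partner genes and 6 markers, C2 had 0 and C4 against C2 had 1. With the mean over its probe sets, Cask differed by 6.08e-06 in C4. Counts of genes above the floor were 9 cadherins and 24 protocadherins at a limit of 3, and 8 and 17 at 5. Whether the replicate numbers pair the arrays is not known. Deviations of arrays with the same number correlated from -0.0381 to 0.12, with 1 of 9 pairs over 0.1. Deviations from means of 3 arrays are too noisy for these low values to exclude pairing. With the number as a replicate block, C4 against Ctr had 11 member probe sets, C4 against C2 had 9 and C2 had 0. At an unadjusted p under 0.05, limma had 14 of the 101 in C2 with the block, where 9.73% of all probe sets were, 10 with the robust prior, where 6.95% were, and 15 in the fit as reported, where 10.3% were. Calls of Cdh11, Pcdh19, Pcdh9 (1429861_at), Cdh10 (1460538_at) and Cdh13 (1454015_a_at) in C4 against Ctr were kept wherever the adjusted p was the only threshold and the probe set was measured. Where a difference of at least 1 was required, the call of Cdh11 alone was kept.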
